A study of Mus musculus with 12 samples.

Results

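Goblet cell fate and secretory genes were followed in mouse colon as a set of 10: Atoh1, Gfi1, Spdef and Creb3l1, which direct the fate and maturation of the cell, and Agr2, Clca1, Fcgbp, Zg16, Tff3 and Klk1, which it secretes or uses in secretion. They were chosen by gene symbol, with earlier results of these data known. All 10 were found among the 35841 genes of the expression table and all 10 were among the 22279 genes with enough counts to test. The RNA came from colon of wild-type mice in 12 libraries, 3 in each of 4 groups. The DSS_ImP group received DSS and ImP, the DSS group DSS, the ImP group ImP, and the Ctrl group neither agent, so wild-type genotype and tissue were shared by all. Dextran sulfate sodium (DSS) is a polymer given to mice to injure the colon lining. The labels leave ImP as an abbreviation and give no strain, age, sex or dose. The series text speaks of 7 days of ImP in colitis, and the polysaccharides of its title are not mentioned for any library. Nothing in the sources says that each library had its own animal, so p-values speak of the spread between these samples, which may be technical.

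Goblet cells are the mucus-secreting cells of the colon crypt. In crypt progenitors, Notch signalling represses Atoh1, and a cell that escapes Notch and keeps Atoh1 enters the secretory lineage. Gfi1 acts after Atoh1 in that lineage, and Spdef and Creb3l1 act in maturation, when the endoplasmic reticulum expands to fold mucin. The mature cell packs the gel-forming mucin Muc2 with partner proteins such as Fcgbp, Clca1 and Zg16 and releases them as the mucus layer.

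The promoters of Atoh1 and Klk1 are shown because these are the members that fell when DSS_ImP was compared with DSS. Both are RefSeq windows on build GRCm38.p6, from 250 bases before to 50 bases after the annotated start, read on the plus strand of the chromosome, which is the strand of the gene for both. Capitals mark CANNTG, the core of the E-box that basic helix-loop-helix factors such as Atoh1 recognise. The motif is its own reverse complement, so 1 strand covers both.
Atoh1, chr6:64728875-64729174: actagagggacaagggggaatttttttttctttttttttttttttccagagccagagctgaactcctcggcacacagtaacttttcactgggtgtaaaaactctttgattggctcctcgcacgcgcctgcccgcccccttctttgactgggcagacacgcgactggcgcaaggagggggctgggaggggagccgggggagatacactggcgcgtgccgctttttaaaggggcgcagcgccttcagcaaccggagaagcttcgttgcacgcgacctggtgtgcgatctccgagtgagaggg
Klk1, chr7:44225110-44225409: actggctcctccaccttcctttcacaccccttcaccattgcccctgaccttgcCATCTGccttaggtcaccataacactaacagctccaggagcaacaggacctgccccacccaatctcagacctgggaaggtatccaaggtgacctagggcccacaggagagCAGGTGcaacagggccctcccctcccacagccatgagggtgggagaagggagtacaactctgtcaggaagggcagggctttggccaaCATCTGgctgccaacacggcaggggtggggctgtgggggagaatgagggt
The Klk1 window held 3 matches. Of these, 2 read CATCTG, which is CAGATG on the other strand. The Atoh1 window held 0 matches. CANNTG was present in 72.3% of 32851 RefSeq promoter windows of this length and CAGATG, a subset of CANNTG, in 17.2%. RefSeq windows were found for 6 of the 10 members, with 7 windows in all, and CANNTG was in 5 of the 7. A match is a run of letters and not a measured site.

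Library totals ran from 55419380 to 67406087 estimated counts, and levels are counts scaled to a common library size after TMM normalisation (CPM). Liver transcripts summed to at least 108 CPM in the Ctrl libraries and DSS 2 and to at most 4.81 CPM elsewhere, and pancreatic transcripts, in ImP and in DSS 3 and 5, to at least 16.6 CPM. These traces split the libraries into batch A (Ctrl 1, 4 and 5 with DSS 2), batch B (DSS 3 and 5 with the ImP libraries) and batch C (DSS_ImP 2, 3 and 4). The batches were found in the data and are not in the labels. DSS_ImP stood alone in its batch, so in each comparison with it, batch and group cannot be told apart. DSS 2 is the lone DSS library in the batch of Ctrl. Values within batch A, and those of DSS against Ctrl with batch as a term, therefore set that library alone against Ctrl, and ImP is tied to Ctrl through it. They assume that it varies like the other libraries.

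Cell markers also moved with the groups. A sum of 10 epithelial markers spanned 11212 to 13659 CPM in DSS_ImP, 14467 to 16193 CPM in DSS, 13993 to 16829 CPM in ImP and 12676 to 15945 CPM in Ctrl. A sum of 8 neutrophil markers spanned 424 to 1460 CPM in DSS_ImP, 52.8 to 133 CPM in DSS, 68.6 to 253 CPM in ImP and 4.12 to 10.6 CPM in Ctrl. Fibroblast markers summed to 2026 to 3390 CPM in DSS_ImP, against 588 to 1449 CPM in DSS. In DSS_ImP against DSS, 7 of the 8 neutrophil markers and 5 of 5 fibroblast markers rose. S100a8, S100a9, Cxcr2, Mmp8 and Ngp were at 0 in at least 1 library. Levels per epithelial RNA are given below, and the part of the other marker shifts in the results was not tested. In bulk tissue, fewer goblet cells and less RNA in each goblet cell cannot be told apart.

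**Figure D1:**
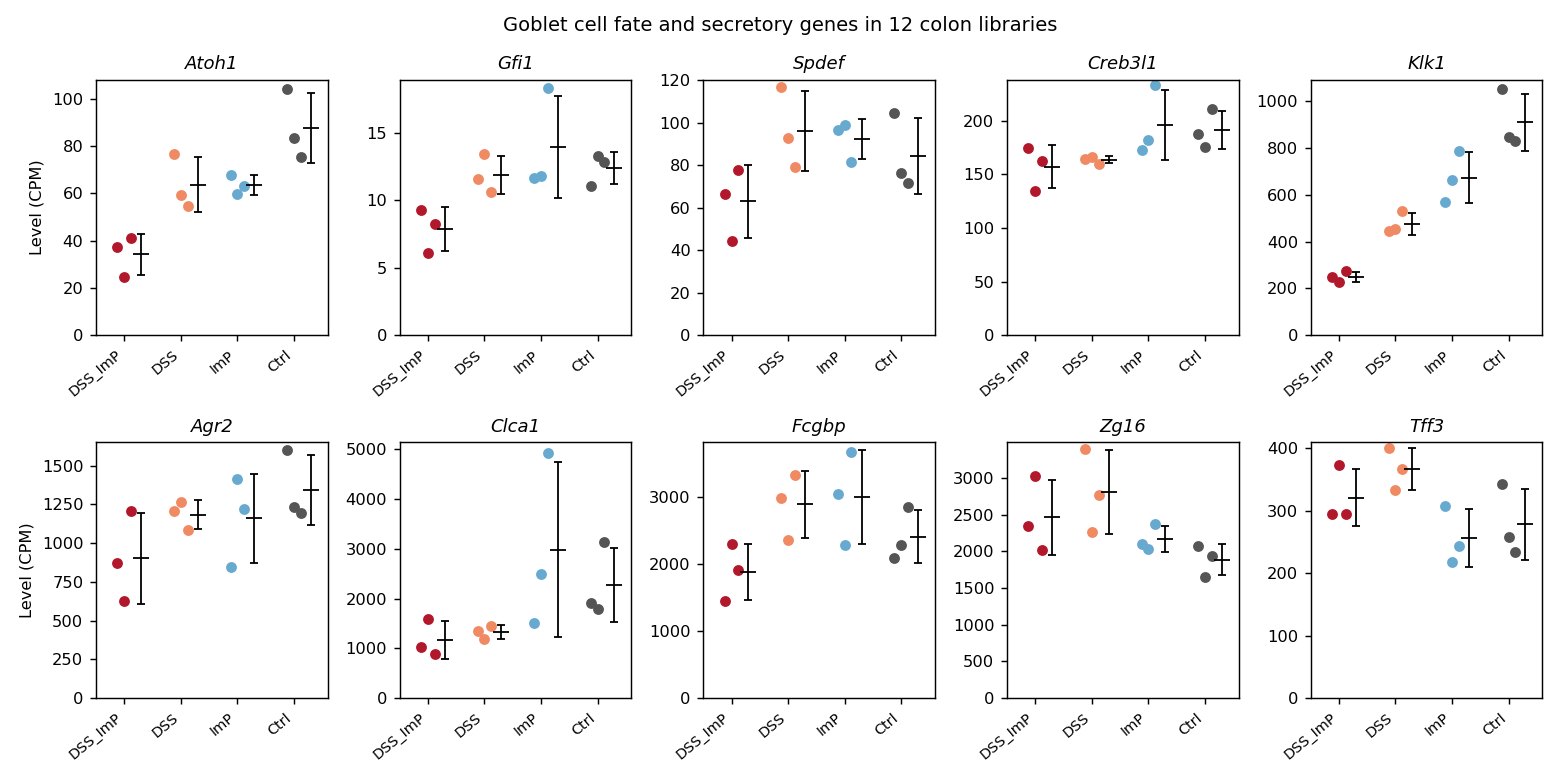
Level of each of the 10 genes (y axis, CPM, from 0) in every library of DSS_ImP, DSS, ImP and Ctrl (points), with the mean ± SD of each group's 3 libraries beside them (black). Klk1 is lowest in DSS_ImP, then DSS, then ImP, and highest in Ctrl, while the Zg16 and Tff3 points of DSS_ImP lie inside or above those of Ctrl.

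The words rose and fell are kept for genes with an adjusted p under 0.05 (false discovery rate, FDR) in edgeR's quasi-likelihood fit, adjusted by Benjamini-Hochberg over the 22279 genes. DSS_ImP against DSS addresses what ImP added to DSS. Of the 10 genes, 2 fell there (Klk1 and Atoh1) and 0 rose, against 4.04% of all tested genes that fell and 3.99% that rose. All 10 log2 changes were negative. The median of the 10 was -0.49, against 0.02 over all tested genes. Markers of other epithelial cells also had negative medians there: -0.56 for absorptive colonocytes (3 of 10 fell), -1.20 for tuft cells (4 of 7 fell), -0.47 for enteroendocrine cells (0 of 8 passed) and -0.33 for the pan-epithelial markers (1 of 10 fell). In 5 of the 10 (Atoh1, Gfi1, Spdef, Fcgbp and Klk1), all 3 DSS_ImP libraries lay below all 3 DSS libraries, where 14.3% of all tested genes lay so.

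In DSS against Ctrl, 1 of the 10 fell (Klk1) and 0 rose, where 1.59% of all tested genes fell and 1.21% rose. The median of the 10 was -0.12, and -0.02 over all tested genes. The remaining genes went both ways, with log2 changes between -0.78 for Clca1 and 0.57 for Zg16. All DSS libraries lay below all Ctrl libraries for 3 of the 10 (12.5% of all tested genes) and above them for 1 (9.91%). In ImP against Ctrl, 0 of the 10 passed in either direction, where 1.99% of all tested genes did (1.06% up and 0.929% down). At an unadjusted p under 0.05, 2 of the 10 passed there (15.2% of all tested genes). DESeq2 also called 0 of the 10, and 5.7% of all tested genes. The ImP libraries lay below all Ctrl libraries for 2 of the 10, Atoh1 and Klk1 (11.6% of all tested genes). The median there was 0.08, and -0.01 over all tested genes.

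DSS_ImP against ImP addresses what DSS did where ImP was given as well. Atoh1, Gfi1, Clca1 and Klk1 fell, 4 of 10, and 0 rose, where 4.92% of all tested genes fell and 4.41% rose. The DSS_ImP libraries lay below all ImP libraries for 4 of the 10, Atoh1, Gfi1, Spdef and Klk1 (13.8% of all tested genes). The median was -0.61, against 0.00 over all tested genes. Markers of other epithelial cells had negative medians as well. These were -0.82 for absorptive colonocytes (6 of 10 fell), -1.66 for tuft cells (5 of 7 fell), -0.52 for enteroendocrine cells (2 of 8 fell) and -0.32 for the pan-epithelial markers (2 of 10 fell). Against Ctrl, 3 of the 10 fell in DSS_ImP (Atoh1, Gfi1 and Klk1), and 0 rose, where 11.8% of all tested genes fell and 10.9% rose. The median was -0.50, and 5 of the 10 lay below all Ctrl libraries (20.1% of all tested genes). The same marker lists had medians of -0.20 (absorptive), -1.70 (tuft), -1.15 (enteroendocrine) and -0.16 (pan-epithelial) there. The 3 comparisons with DSS_ImP share its libraries and are not independent of each other. The interaction subtracts the DSS change without ImP (DSS minus Ctrl) from that with ImP (DSS_ImP minus ImP). It called 0 of the 10 and 0 of all genes in edgeR. Over all genes it called 476 without DSS_ImP 4, 48 without Ctrl 5, 30 without ImP 4, 8 without DSS 2, 1 without DSS 3 or Ctrl 1, and 0 without any other library, with 0 of the 10 in each case. At an unadjusted p under 0.05 it held 4 of the 10 and 11.8% of all tested genes, and DESeq2 called 1 of the 10 (Fcgbp). The 10 interaction values were all negative, with a median of -0.46, against 0.03 over all tested genes. The interaction medians of other epithelial markers were -0.98 for absorptive colonocytes, -0.87 for tuft cells, 0.21 for enteroendocrine cells and -0.42 for the pan-epithelial markers.

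**Figure D2:**
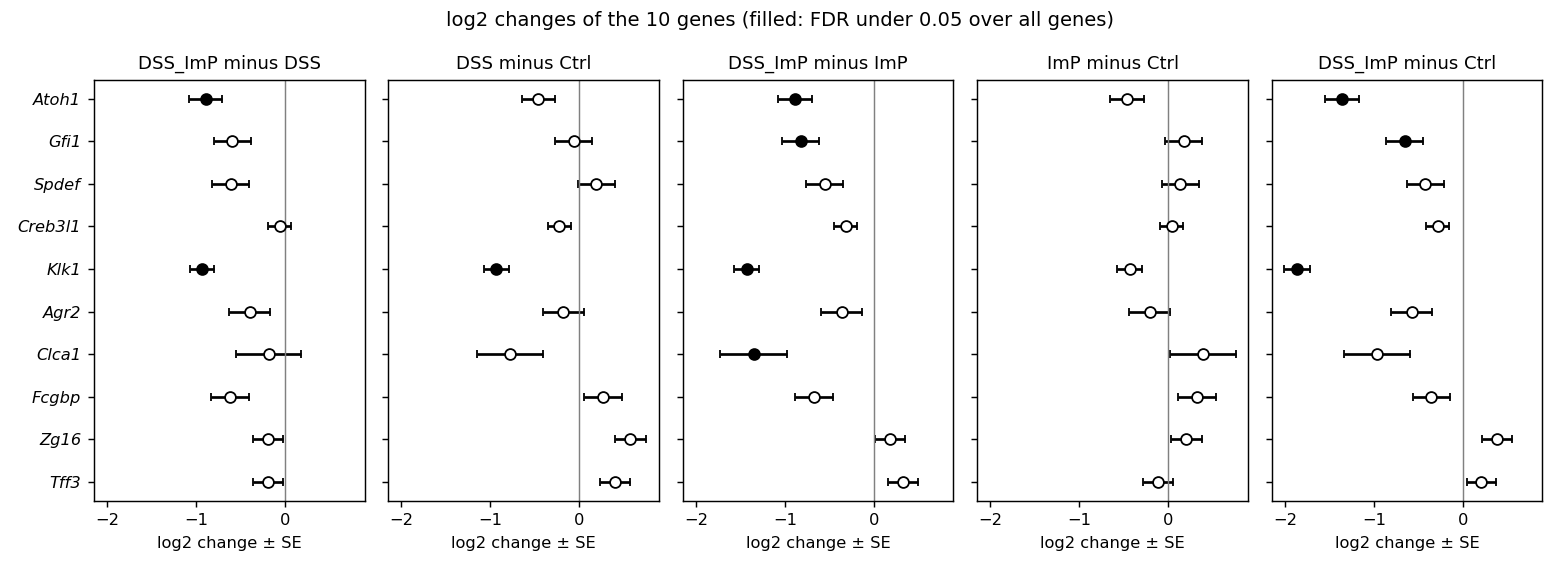
The log2 change ± SE of each of the 10 genes in the 5 pairwise comparisons (x axis, log2 units; the vertical line is 0). Filled circles passed the FDR of 0.05 over all genes. In the first panel all 10 points lie left of 0, and Klk1 is filled in every panel except ImP minus Ctrl.

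Atoh1 (ENSMUSG00000073043, chromosome 6), the switch of secretory fate, had 37.4, 24.5 and 41.0 CPM in DSS_ImP 2, 3 and 4, against 76.8, 59.4 and 54.8 CPM in DSS 2, 3 and 5. ImP 1, 3 and 4 had 67.7, 59.5 and 63.2 CPM, and Ctrl 1, 4 and 5 had 104, 83.3 and 75.4 CPM. The DSS_ImP libraries lay below all 9 others, the DSS and ImP libraries overlapped, and the ImP libraries lay below all Ctrl libraries. Atoh1 fell in DSS_ImP against DSS by 0.89 ± 0.19 (log2 change ± SE, adjusted p = 0.0169), to 53.9% of the DSS level. It fell against ImP by 0.89 ± 0.19 (adjusted p = 0.0123) and against Ctrl by 1.35 ± 0.19 (adjusted p = 0.000468). The call against DSS was lost without DSS_ImP 3 (log2 change -0.70, adjusted p = 0.0541) and without DSS 2 (-0.74, adjusted p = 0.0643). It was also lost when only the DSS_ImP and DSS libraries were fitted (adjusted p = 0.0593). The calls against ImP and Ctrl held under all 20 alternatives tried. DSS and ImP alone gave nearly equal values against Ctrl that did not pass, -0.46 ± 0.19 in both (adjusted p = 0.256 and 0.255). With batch as a term, where DSS 2 alone links the batches, these were -0.19 for DSS and -0.04 for ImP.

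Gfi1 (ENSMUSG00000029275, chromosome 5) is a zinc-finger repressor that favours goblet over enteroendocrine fate and is also made in the neutrophil lineage. It had 9.30, 6.06 and 8.26 CPM in DSS_ImP, against 11.6, 13.4 and 10.6 CPM in DSS, 11.7, 11.8 and 18.3 CPM in ImP, and 11.0, 13.3 and 12.8 CPM in Ctrl. The DSS_ImP libraries were again below all 9 others, and the other 3 groups overlapped. Gfi1 fell in DSS_ImP against ImP by 0.82 ± 0.21 (adjusted p = 0.0278), a call lost without DSS_ImP 3 (adjusted p = 0.119) or ImP 4 (0.103). It fell against Ctrl by 0.65 ± 0.21 (adjusted p = 0.0408), a call lost without any of DSS_ImP 3, DSS_ImP 4, DSS 2, DSS 5, Ctrl 1, Ctrl 4 or Ctrl 5 (adjusted p up to 0.167). Both calls were lost with limma, the call against ImP also with only the groups compared (adjusted p = 0.0994) and that against Ctrl without the filter on low counts (0.0670). Against DSS the value was -0.59 ± 0.21 and did not pass (adjusted p = 0.105). The library with the lowest Gfi1 level, DSS_ImP 3, was the one with the highest neutrophil marker sum, 1460 CPM. That library was also the lowest of its group for Atoh1, Spdef, Creb3l1, Agr2 and Klk1. Which cells the Gfi1 RNA came from was not tested.

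Spdef (ENSMUSG00000024215, chromosome 17), an ETS factor of goblet maturation, had 66.5, 44.4 and 77.9 CPM in DSS_ImP, against 117, 92.6 and 79.0 CPM in DSS. ImP had 96.5, 99.1 and 81.6 CPM and Ctrl 105, 76.5 and 71.8 CPM. DSS_ImP lay below DSS and below ImP without overlap, and overlapped Ctrl. The log2 change against DSS was -0.61 ± 0.21, with a 95% interval of -1.09 to -0.13, and did not pass (adjusted p = 0.0981). It passed without DSS_ImP 4 (-0.79, adjusted p = 0.0411). Creb3l1 (ENSMUSG00000027230, chromosome 2), a membrane-bound factor of the endoplasmic reticulum, had 174, 135 and 162 CPM in DSS_ImP, against 165, 166 and 159.8 CPM in DSS. It had 173, 182 and 233 CPM in ImP and 188, 176 and 211 CPM in Ctrl. DSS_ImP surrounded DSS. The log2 change between them was -0.06, with an interval of -0.35 to 0.24 that leaves room for a modest change either way. Creb3l1 passed in none of the 5 pairwise comparisons (adjusted p of 0.136 or more).

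Agr2 (ENSMUSG00000020581, chromosome 12), a disulfide isomerase that Muc2 folding requires, had 869, 625 and 1209 CPM in DSS_ImP, against 1206, 1265 and 1082 CPM in DSS. ImP had 846, 1414 and 1220 CPM and Ctrl 1601, 1233 and 1194 CPM. The groups overlapped in every comparison. The value against DSS was -0.39 ± 0.23 (adjusted p = 0.336) and against Ctrl -0.58 ± 0.23 (adjusted p = 0.0977). The value against Ctrl passed without DSS_ImP 4 (-0.85, adjusted p = 0.0182).

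Clca1 (ENSMUSG00000028255, chromosome 3), a secreted metalloprotease that cleaves Muc2 in the mucus, had 1020, 1596 and 890 CPM in DSS_ImP, against 1355, 1182 and 1442 CPM in DSS. ImP had 1517, 2494 and 4934 CPM and Ctrl 1911, 1790 and 3133 CPM. DSS and DSS_ImP each lay below all Ctrl libraries, and the ImP libraries spanned a 3.25-fold range. Clca1 fell in DSS_ImP against ImP by 1.35 ± 0.37 (adjusted p = 0.0412), although DSS_ImP 3 was above ImP 1. Without ImP 4 the value was -0.79 (adjusted p = 0.152), and the call was lost without any of 8 other libraries as well: DSS_ImP 2 and 4, DSS 2, 3 and 5, ImP 3, and Ctrl 1 and 4. It was lost as well with limma, without the filter on low counts and with only the groups compared (adjusted p 0.0621 to 0.118). Against Ctrl the values were -0.96 ± 0.37 for DSS_ImP (adjusted p = 0.0829) and -0.78 ± 0.37 for DSS (adjusted p = 0.340). The value for DSS_ImP passed without ImP 1, without ImP 4 and with only the groups compared (adjusted p 0.0278 to 0.0482).

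Fcgbp (ENSMUSG00000047730, chromosome 7), a large mucus protein bound to Muc2, had 1447, 2294 and 1903 CPM in DSS_ImP, against 2988, 2351 and 3329 CPM in DSS. ImP had 3046, 2278 and 3676 CPM and Ctrl 2082, 2282 and 2846 CPM. DSS_ImP lay below DSS without overlap and overlapped the other groups. The log2 changes were -0.62 ± 0.21 against DSS (adjusted p = 0.0958) and -0.67 ± 0.21 against ImP (adjusted p = 0.0705), and neither passed. The value against ImP passed without ImP 3 (-0.84, adjusted p = 0.0408) and with DESeq2 (adjusted p = 0.0120). Fcgbp had the most negative interaction of the 10, -0.94 ± 0.30 (adjusted p = 0.218).

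Zg16 (ENSMUSG00000049350, chromosome 7), a lectin that binds the wall of Gram-positive bacteria, ran the other way in DSS. It had 2340, 3027 and 2022 CPM in DSS_ImP, against 3400, 2267 and 2763 CPM in DSS. ImP had 2104, 2038 and 2378 CPM and Ctrl 2077, 1656 and 1934 CPM. All DSS libraries lay above all Ctrl libraries. The log2 change of DSS against Ctrl was 0.57 ± 0.17 and did not pass (adjusted p = 0.110), and in DSS 2 alone against Ctrl, within batch A, it was 0.87. Tff3 (ENSMUSG00000024029, chromosome 17), a trefoil peptide of mucosal repair, had 295, 373 and 295 CPM in DSS_ImP, against 400 CPM, 333 CPM and 367 CPM in DSS. It had 308, 218 and 243 CPM in ImP and 343, 257 and 234 CPM in Ctrl. Its groups overlapped in every comparison. The log2 change of DSS against Ctrl was 0.40 ± 0.17 (adjusted p = 0.268). In DSS_ImP against DSS both genes had -0.19 ± 0.17, with upper interval ends of 0.21 for Zg16 and 0.19 for Tff3.

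Klk1 (ENSMUSG00000063903, chromosome 7), the tissue kallikrein, is a serine protease that releases kinins from kininogen. It had 247, 228 and 274 CPM in DSS_ImP, against 444, 454 and 531 CPM in DSS. ImP had 569, 663 and 787 CPM and Ctrl 1050 CPM, 849 CPM and 829 CPM. The 4 groups did not overlap at all, in the order DSS_ImP, DSS, ImP, Ctrl. Klk1 fell in DSS_ImP against DSS by 0.93 ± 0.14 (adjusted p = 0.00513), to 52.4% of the DSS level. It fell in DSS_ImP against ImP by 1.43 ± 0.14 (adjusted p = 0.000306), and against Ctrl by 1.87 ± 0.14 (adjusted p = 2.48e-05), to 27.5% of the Ctrl level. These 3 calls held under all 20 alternatives tried. In DSS against Ctrl it fell by 0.93 ± 0.14 (adjusted p = 0.00490), and the call held with each library left out. In DSS 2 alone against Ctrl, within batch A, the log2 change was -1.01, and with batch as a term, which rests on the same library, it was -1.03 and did not pass (adjusted p = 0.0812). ImP against Ctrl gave -0.43 ± 0.14 (adjusted p = 0.140). The interaction of Klk1 was -0.50 ± 0.20 (adjusted p = 0.332).

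Klk1 has a mouse family of near-identical Klk1b copies, whose reads the counting could split with it. Of the 16 Klk1b genes in the table, 2 were tested, and the 16 summed to a mean of 5.38 FPKM (fragments scaled by transcript length and library size), against 465 FPKM for Klk1. Klk1b5 fell as well in DSS_ImP, by 2.11 ± 0.45 against ImP and by 2.44 ± 0.45 against Ctrl (adjusted p = 0.0121 and 0.00246), and did not pass against DSS. Of 16 tested relatives of the members, 1 fell and 1 rose against ImP, and 2 fell and 5 rose against Ctrl. Over all tested genes 4.92% and 11.8% fell in these comparisons, and 4.41% and 10.9% rose.

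The DSS_ImP libraries were not low in all 10 genes alike. DSS_ImP 3 had the lowest level of its group for 6 genes, Atoh1, Spdef, Gfi1, Creb3l1, Agr2 and Klk1. The same library had the highest level for the other 4, Clca1, Fcgbp, Zg16 and Tff3. All 4 fate factors stood at their group's lowest in a library where 4 of the 6 secretory genes stood at their group's highest. DSS 5 had a similar split within its group. It was lowest for 5 genes (Atoh1, Spdef, Gfi1, Creb3l1 and Agr2) and highest for 3 (Clca1, Fcgbp and Klk1). The neutrophil marker sum was 1460 CPM in DSS_ImP 3, against 563 CPM in DSS_ImP 2 and 424 CPM in DSS_ImP 4. In DSS 5 that sum was the lowest of the DSS group, at 52.8 CPM. A link between the split and the neutrophil markers was not tested. In ImP, replicate 4 was the highest for 6 of the 10, and in Ctrl, replicate 1 was.

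Set against the epithelial marker sum of the same library, Atoh1 and Klk1 were the 2 of the 10 whose DSS_ImP libraries lay below all DSS libraries, where 3.03% of all tested genes did. Creb3l1 was the 1 whose DSS_ImP libraries lay above, where 35.2% of all tested genes did. In CPM these counts were 5 below and 0 above (14.3% and 14.2% of all tested genes). Atoh1 was at 0.323%, 0.219% and 0.300% of that sum in DSS_ImP, against 0.508%, 0.367% and 0.379% in DSS. It was at 0.451%, 0.354% and 0.452% in ImP and 0.652%, 0.657% and 0.547% in Ctrl. On this measure too, the DSS_ImP libraries of Atoh1 lay below all 9 others. Klk1 was at 2.14%, 2.03% and 2.0% in DSS_ImP, against 2.94%, 2.80% and 3.67% in DSS. It was at 3.78%, 3.94% and 5.62% in ImP and 6.59%, 6.70% and 6.01% in Ctrl. The 4 groups of Klk1 stayed apart. Creb3l1 was higher per epithelial RNA in DSS_ImP (1.51%, 1.20% and 1.19%) than in DSS (1.09%, 1.03% and 1.10%). Spdef, Gfi1 and Fcgbp overlapped between DSS_ImP and DSS on this measure. Zg16 and Tff3 stood above Ctrl in all 3 DSS_ImP libraries, as did 25.7% of all tested genes. For Tff3 the groups nearly touched, at 2.156% in DSS_ImP 4 and 2.152% in Ctrl 1. Zg16 averaged 20.7% ± 6.11 in DSS_ImP and 13.4% ± 0.563 in Ctrl (SD, n = 3 each).

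**Figure D3:**
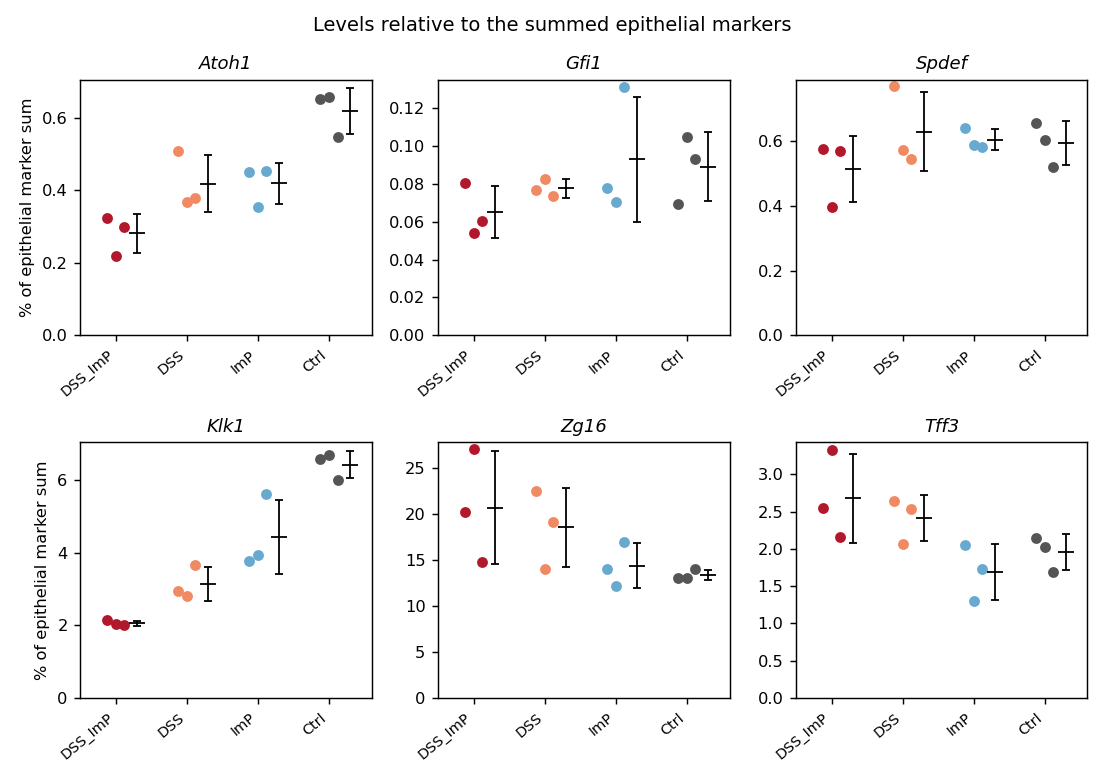
Level of 6 of the 10 genes as a percentage of the summed epithelial markers of the same library (y axis, %, from 0), for each library of DSS_ImP, DSS, ImP and Ctrl (points), with group mean ± SD (black, n = 3). Atoh1 and Klk1 remain lowest in DSS_ImP, and Gfi1 and Spdef overlap between DSS_ImP and DSS. Zg16 and Tff3 are higher in DSS_ImP than in Ctrl, although the lowest Tff3 point of DSS_ImP nearly touches the highest of Ctrl.

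Levels of different genes are compared in FPKM, which divides by transcript length. Zg16 ranked highest and Agr2 next in all 4 groups. Zg16 averaged 1850 FPKM ± 428 in DSS_ImP, 1953 ± 398 in DSS, 1483 ± 164 in ImP and 1281 ± 115 FPKM in Ctrl. Klk1, Clca1 and Tff3 each moved between places 3 and 5. Klk1 was number 5 in DSS_ImP (218 ± 14.3 FPKM), number 4 in DSS (387 ± 43.6 FPKM) and in ImP (536 ± 101 FPKM), and number 3 in Ctrl (718 ± 63.4 FPKM). Neighbours in the order often overlapped: Klk1 overlapped Fcgbp in DSS_ImP, and Clca1 overlapped Klk1 in Ctrl. Creb3l1 was number 7 and Gfi1 last in each group, Gfi1 with 2.32 ± 0.527 FPKM in DSS_ImP and 3.33 ± 0.451 FPKM in Ctrl. Atoh1 lay below Spdef in DSS_ImP, at 15.2 ± 3.62 and 25.6 ± 6.37 FPKM, without overlap. So it did in ImP, at 25.6 ± 1.75 and 34.3 ± 2.63 FPKM, without overlap. In DSS it lay below with overlap, at 26.2 ± 4.65 and 36.4 ± 6.98 FPKM. In Ctrl it was above Spdef, at 35.1 ± 4.33 and 31.1 ± 5.07 FPKM, with overlap.

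Genes resembling the mean profile of the 10 over the 12 libraries were sought outside the 10, the further lists and the cell marker lists. Goblet and epithelial genes of those lists, such as Muc2, could therefore not appear. Likeness was the root-mean-square difference of standardised log2 CPM, where 0 is identical. The closest genes were Mmaa (0.283), Il17rc (0.327), Tmco3 (0.379), Rab27b (0.389), Frat1 (0.394), Nsmf (0.402), Ank3 (0.407) and Hpd (0.415). Among the 10 themselves, Atoh1 was nearest to the mean profile (0.515). Zg16 (1.39) and Tff3 (1.46) were farthest from it, and the other 7 lay between 0.538 and 0.837.

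Muc2, the gel-forming mucin, was named after its values were seen because the members serve it. It averaged 7278 ± 1742 CPM in DSS_ImP, 11306 ± 1563 CPM in DSS, 13090 ± 3811 CPM in ImP and 14477 ± 1871 CPM in Ctrl. The DSS_ImP libraries lay below those of DSS, with a log2 change of -0.64 ± 0.23 that did not pass (adjusted p = 0.113). Muc2 fell in DSS_ImP against ImP by 0.85 ± 0.23 (adjusted p = 0.0380), a call lost without any of DSS_ImP 2, DSS_ImP 3, DSS 5, ImP 3, ImP 4, Ctrl 4 or Ctrl 5 (adjusted p up to 0.140). That call was also lost with limma, without the filter on low counts and with only the groups compared (adjusted p 0.0573 to 0.131). It fell against Ctrl by 0.99 ± 0.23 (adjusted p = 0.00894) and kept that call with each library left out.

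Mucin O-glycosylation enzymes, which load Muc2 with sugars, were 1 of 7 further lists. In DSS_ImP against DSS 6 of 21 tested fell and 1 rose, with a median log2 change of -0.32, where 4.04% of all tested genes fell and 3.99% rose. Gcnt3, which branches mucin sugars, averaged 132 ± 44.4 CPM in DSS_ImP and 290 CPM ± 38.9 in DSS. It fell by 1.14 ± 0.19 (adjusted p = 0.00693) and kept its call with each library left out. Galnt6 fell by 0.79 ± 0.15 and Galnt12 by 0.62 ± 0.14, while Galnt2 rose by 0.72 ± 0.15 (adjusted p = 0.0118, 0.0189 and 0.0153). All 3 start O-glycan chains. The count that fell was 1 without DSS 5, 2 without DSS_ImP 3, 3 without DSS_ImP 2, 4 without DSS 2 and 11 without DSS_ImP 4. In that order, 2.26%, 2.13%, 3.56%, 3.29% and 11.3% of all tested genes were called, against 8.03% with all libraries. The Galnt6 call was lost without DSS_ImP 3 or DSS 5, the Galnt2 call without DSS 2 or DSS 5, and the Galnt12 call without DSS_ImP 2, DSS_ImP 3 or DSS 5.

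Genes of exocytosis and channels fell in 4 of 15, with 0 rising and a median of -0.37 (4.04% of all tested genes fell and 3.99% rose). Nlrp6, a sensor linked to goblet cell secretion, fell by 0.82 ± 0.16 (adjusted p = 0.0107) and kept its call with each library left out. Hepacam2 fell by 0.66 ± 0.14, Sytl4, a granule docking protein, by 0.78 ± 0.18, and Lrrc26, a potassium channel subunit, by 0.65 ± 0.17 (adjusted p = 0.0148, 0.0248 and 0.0393). The count was 1 without DSS_ImP 3 or DSS 5 and 2 without DSS_ImP 2. In these fits 2.13%, 2.26% and 3.56% of all tested genes were called. The Hepacam2 call was lost without DSS_ImP 3 or DSS 5, the Sytl4 call also without DSS_ImP 2, and the Lrrc26 call without any DSS_ImP library, DSS 2, DSS 5, ImP 3 or Ctrl 5. Other lineage transcription factors fell in 4 of 15, with a median of -0.29. These were Klf4, of goblet maturation (-0.53 ± 0.11), Hnf4a (-0.48 ± 0.12) and Cdx2 (-0.76 ± 0.20), of intestinal identity, and Foxa1 (-0.40 ± 0.10), with adjusted p between 0.0158 and 0.0393. All 4 calls were lost without DSS_ImP 2, without DSS_ImP 3 or without DSS 2, and of the 4 Klf4 alone kept its call without DSS 3 or DSS 5. The Cdx2 call was also lost without ImP 1, Ctrl 4 or Ctrl 5.

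Against the same 4.04% falling and 3.99% rising, further secreted proteins fell in 1 of 10 (median -0.67), namely the tryptase Tpsg1, with 17.9 ± 4.16 CPM in DSS_ImP and 32.6 ± 4.90 CPM in DSS (-0.86 ± 0.16, adjusted p = 0.0103, lost without DSS 5). In the Notch pathway, 1 of 17 rose (median 0.06), the receptor Notch2 (1.05 ± 0.21, adjusted p = 0.0139, lost without DSS_ImP 3 or DSS 5). Of 22 folding and stress genes of the endoplasmic reticulum, 0 passed in edgeR in either direction (median -0.05), and DESeq2 called 1 down. Among 16 tested relatives of the members, Creb3l4 fell (-0.72 ± 0.17, adjusted p = 0.0277), a call lost without DSS_ImP 2, DSS_ImP 3, DSS 2 or DSS 5.

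In DSS against Ctrl, 4 of the 7 further lists held 1 call each, all of them rises, where 1.21% of all tested genes rose and 1.59% fell. Retnlb, an antibacterial goblet protein, averaged 566 ± 160 CPM in DSS and 126 ± 14.7 CPM in Ctrl (log2 change 2.17 ± 0.42, adjusted p = 0.0163). It was 1 riser of 10 further secreted proteins. B3galt5, which extends sugar chains, was 1 riser of 21 (0.98 ± 0.21, adjusted p = 0.0288), and Best2, an anion channel of colonic goblet cells, 1 of 15 (2.11 ± 0.32, adjusted p = 0.00580). Clca4b, a relative of Clca1, averaged 1151 ± 80.2 CPM in DSS and 21.0 ± 5.28 CPM in Ctrl (5.78 ± 1.08, adjusted p = 0.0149). In these lists 0 fell. Best2 kept its call with each library left out. Retnlb lost it without DSS 2, DSS 5 or any Ctrl library, B3galt5 without any DSS or Ctrl library, and Clca4b without any Ctrl library. In DSS 2 alone against Ctrl, within batch A, the log2 changes were 2.46 for Retnlb, 1.06 for B3galt5, 2.29 for Best2 and 5.82 for Clca4b. With batch as a term 0 of the 4 passed (adjusted p 0.0646 to 0.180), where 0.233% of all tested genes did.

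In ImP against Ctrl, Foxa2 rose by 1.16 ± 0.20 and Klf4 by 0.54 ± 0.11, 2 of 15 lineage factors (adjusted p = 0.0178 and 0.0330), where 1.06% of all tested genes rose and 0.929% fell. Best2, 1 of 15 exocytosis and channel genes, rose by 1.64 ± 0.32 (adjusted p = 0.0278). Sval1, 1 of 10 further secreted proteins, rose by 3.45 ± 0.78 (adjusted p = 0.0457) and by 5.43 without Ctrl 5. Among the 16 relatives 2 rose and 1 fell, and of these Clca4b rose by 5.44 ± 1.06 and Creb3l3 fell by 1.16 ± 0.22 (adjusted p = 0.0278 and 0.0220). Clca4b ran from 45.6 CPM in ImP 4 to 2223 CPM in ImP 1, while Ctrl held 21.0 ± 5.28 CPM. Without ImP 1 its log2 change was 3.58. Each of these 6 calls was lost without Ctrl 1 and without Ctrl 4. Those of Best2 and Clca4b were also lost without Ctrl 5, those of Best2, Klf4, Sval1 and Creb3l3 without ImP 1, those of Klf4, Sval1 and Creb3l3 without ImP 3, and those of Best2, Klf4 and Sval1 without ImP 4. The Sval1 call was lost without DSS_ImP 2 or any DSS library as well. With batch as a term 0 of the 6 passed, with adjusted p of 0.379 to 0.516, where 1 of all tested genes did (0.00449%). Clca4a, the remaining relative that rose and named after its values were seen, averaged 911 ± 135 CPM in ImP and 313 ± 144 CPM in Ctrl (1.54 ± 0.35, adjusted p = 0.0471). Its call was lost without DSS_ImP 4, DSS 2, DSS 5, any ImP library, Ctrl 1 or Ctrl 4, and with batch as a term (adjusted p = 0.682).

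**Figure D4:**
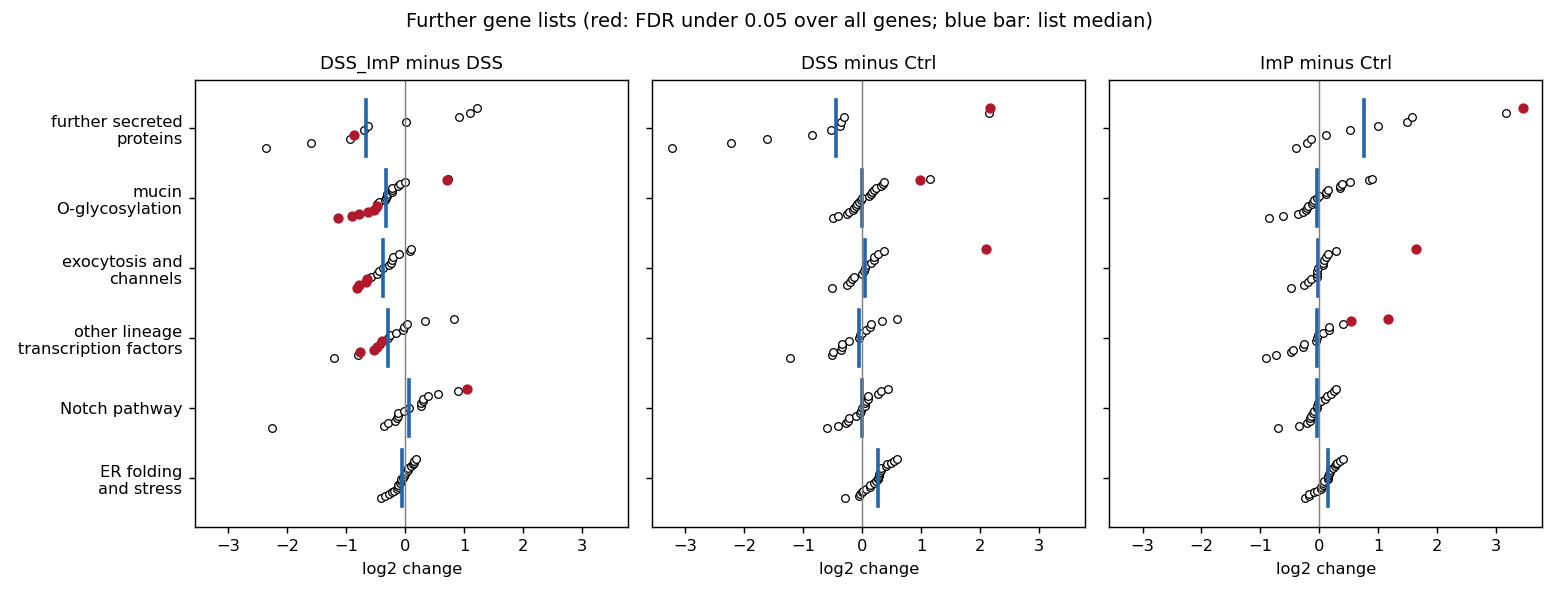
The log2 change (x axis) of each tested gene of 6 further lists (rows) in DSS_ImP minus DSS, DSS minus Ctrl and ImP minus Ctrl. Red points passed the FDR of 0.05 over all genes, open points did not, and blue bars are list medians. In the first panel the O-glycosylation, exocytosis and lineage rows hold red points left of 0, and in the other panels every red point lies right of 0.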

How the data were processed

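The authors deposited 1 table for the whole series with an estimated count and an FPKM value per gene and library. Per the submitters' processing notes, the tools were StringTie 1.3.4d, HISAT2 2.0.4 and cutadapt 1.9 and the build GRCm38. The counts are deposited as whole numbers, and 1 read pair adds about 4 counts. The deposited FPKM values are scaled by the authors to transcript length and library. Per the labels, libraries came from oligo(dT)-selected RNA with dUTP strand marking. The sources used here do not say if counting used the strand. The table shares 33695 gene identifiers with GENCODE M21 but only 663 have the same coordinates, so no positions are taken from the table, and those of the promoter windows are RefSeq's.

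Counts were filtered by filterByExpr, scaled by TMM (factors 0.921 to 1.12) and fitted with edgeR 4.0.16 in R 4.3.3 over all 12 libraries with 1 coefficient per group, in two-sided quasi-likelihood tests. An SE is the size of the log2 change divided by the root of its F statistic, and intervals are at 95% with 8 degrees of freedom. Replicates differed by 11.0 to 37.5 times counting noise (chi-square by degrees of freedom, each count first divided by 4). Alternatives were DESeq2 1.42.0, limma 3.58.1 on log2(FPKM + 1) and log2(FPKM + 0.1) for genes with at least 1 FPKM in 3 libraries, no filter, at least 1 CPM in 6 libraries, a replicate block, a batch term, a fit of the compared groups alone, counts divided by 4, and leaving out each library. The comparison within batch A was added after the data were seen, as were the batches, set by summed liver transcripts from 50 CPM or pancreatic transcripts from 5 CPM upward. Trace genes at 0.5 CPM or more in every library were left out of those sums. The 10 members and the 7 further lists of 133 genes were chosen with earlier results of these data known. From each list, up to 4 called genes with the smallest p are named for DSS_ImP minus DSS and up to 2 for DSS minus Ctrl and ImP minus Ctrl. The 8 genes closest in profile were taken among genes with a symbol and a mean of at least 1 FPKM, outside the members, the further lists and the cell marker lists.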

Additional observations from a re-analysis of the deposited data

How the results depend on the processing

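The number of the 10 genes called in DSS_ImP against DSS was 2 as reported, 5 with DESeq2 (Spdef, Gfi1 and Fcgbp added), 1 with only the groups compared, and 1 to 3 with each library left out. Of all tested genes, 8.03% were called there as reported, 14.3% with DESeq2 and 3.46% with only the groups compared. The share was 1.58% with the replicate block and 2.13% to 11.3% with each library left out. In DSS against Ctrl the number of the 10 called was 1, and 2 with DESeq2 (Zg16 added), 0 with the replicate block and 0 with batch as a term. Of all tested genes, 2.8% were called there as reported, 6.54% with DESeq2, 0.0449% with the block and 0.233% with batch as a term. In DSS_ImP against ImP the number of the 10 called was 4, and 5 with DESeq2 (Fcgbp added). It was 2 with log2(FPKM + 1), 2 with log2(FPKM + 0.1), 2 with the replicate block, 2 with only the groups compared, and 2 to 4 with each library left out. The shares of all tested genes called, in that order, were 9.33%, 14.1%, 16.9%, 16.3%, 3.09%, 5.53%, and 4.33% to 10.8%. In DSS_ImP against Ctrl the number of the 10 called was 3, and 2 with limma, without the filter and with the block, 4 with DESeq2 and with only the groups compared, and 2 to 4 with each library left out. Of all tested genes, 22.7% were called there as reported, 35.4% and 35.1% with limma, 12.3% without the filter and 8.36% with the block. DESeq2 called 27%, the fit of only the groups compared 21.2%, and the fits with each library left out 13.7% to 21.6%. The interaction called 0, and 1 with DESeq2 (Fcgbp, -0.95, adjusted p = 0.0402). Over all genes the interaction called 706 with DESeq2, 72 with log2(FPKM + 1), 46 with the filter of 1 CPM in 6 libraries, and 0 to 476 with each library left out. The cause of these differences was not tested. Same-numbered libraries deviated from their group means with correlations of -0.245 to 0.181 over 9 pairs, 2 of them over 0.1. Libraries with different numbers gave -0.222 to 0.313 over 45 pairs, 8 of them over 0.1. No pairing by number was seen, although so few pairs cannot exclude one, and the block is given here alone. In DSS_ImP against DSS, the O-glycosylation genes that fell numbered 6 as reported, 2 with the block and 1 with only the groups compared. For exocytosis and channels the counts were 4, 1 and 1, for lineage factors 4, 0 and 1, and for further secreted proteins 1, 0 and 0. Of the list genes named there, Gcnt3 and Nlrp6 kept their calls under the block and Gcnt3, Klf4, Lrrc26 and Notch2 with only the groups compared. Under the block Klk1 in DSS against Ctrl was -0.83 (adjusted p = 0.153).

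Of the alternative values, 18 changed sign, all of results that did not pass. With log2(FPKM + 1) and with log2(FPKM + 0.1), Creb3l1 was 0.041 in DSS_ImP against DSS and its interaction 0.011, and the Tff3 interaction was 0.019. With batch as a term Tff3 was 0.072 in ImP against Ctrl. With each library left out in turn, Creb3l1 ran from -0.14 to 0.044 in DSS_ImP against DSS and from -0.092 to 0.12 in ImP against Ctrl. Gfi1 ran from -0.16 to 0.011 in DSS against Ctrl and from -0.060 to 0.28 in ImP against Ctrl. In ImP against Ctrl, Clca1 ran from -0.17 to 0.71 and Tff3 from -0.27 to 0.062. The interactions ran from -0.19 to 0.024 for Creb3l1, -0.25 to 0.077 for Tff3 and -0.45 to 0.0083 for Agr2. With 3 libraries a group, a p that missed the threshold does not show equal levels.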
